A study of Mus musculus with 9 samples.

Results

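The genes described here are the enzymes and transporters of glycolysis together with a set of genes that respond to low oxygen, chosen by name from a list of 32 symbols. Of these, 30 had at least 1 probe set that named that gene alone, out of 18194 genes measured in the series. Eno1 and Gpi1 were not analysed here, because no probe set named either of them alone. The 30 genes had 66 probe sets, of which 61 passed the filter on dim values, and 18 of the genes had more than 1. The list fell into 5 roles: 2 glucose transporters, 8 genes of upper glycolysis, 6 of lower glycolysis, 6 that handle pyruvate and lactate, and 8 of the hypoxia response.

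Glycolysis breaks glucose down to pyruvate in the cytosol, and many of its steps can be carried by alternative isoforms that differ between tissues. Pyruvate is either reduced to lactate and exported through monocarboxylate transporters or taken into mitochondria, an entry that the pyruvate dehydrogenase kinases restrain. Hypoxia-inducible factor (HIF) is hydroxylated by the Egln enzymes and destroyed while oxygen is plentiful. When oxygen falls it accumulates and switches on glucose transporters, many glycolytic enzymes and genes such as Vegfa, Bnip3 and Ankrd37. ES cells of the mouse are known for a high glycolytic rate, and neurons for a larger reliance on mitochondrial respiration.

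RNA was measured on 9 Affymetrix mouse arrays, 3 in each of 3 groups, all made from 1 line: Ainv15 mouse embryonic stem (ES) cells with a V5-tagged Cdx2 construct inducible by doxycycline. The first group, called Cdx2 and FGF cultures, was collected at day 5 of differentiation. On day 2 these embryoid bodies were given all-trans retinoic acid (1 µM) and an agonist of hedgehog signalling (0.5 µM), then 2 µg/ml doxycycline, which turned on Cdx2, and 100 ng/ml basic FGF on day 3. The second group, the motor neuron cultures, was collected at day 5 after the same retinoic acid and hedgehog agonist, without doxycycline or FGF. The third was undifferentiated ES cells at day 0, untreated, kept with LIF on fibroblasts that had been treated with mitomycin-C. The protocol also mentions a wash, and FGF accompanied by less retinoic acid and less hedgehog agonist, without saying which cultures had them. The effects of doxycycline-induced Cdx2 and of FGF cannot be told apart in this design. The cultures were mixed and no purification is described, so fewer cells of a type and less RNA per cell cannot be told apart either.

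The induced gene went with the labels: the 2 Cdx2 probe sets read 6.39 to 8.99 on the log2 scale in Cdx2 and FGF cultures, at most 2.63 in motor neuron cultures and at most 4.56 in ES cells. Arrays of 1 group correlated at 0.998 (Cdx2 and FGF cultures), 0.995 to 0.997 (motor neuron cultures) and 0.963 to 0.974 (ES cells) over all probe sets. The ES arrays also stood apart in 2 of the 3 amplification controls, by amounts that differed between controls. The Actb control (3′ minus 5′ probe set) averaged -0.04 ± 0.05 in Cdx2 and FGF cultures, -0.04 ± 0.01 in motor neuron cultures and 2.07 ± 0.22 in ES cells (log2, SD, n = 3 each). The same difference for Tfrc was -1.62 ± 0.16 in Cdx2 and FGF cultures, -1.50 ± 0.09 in motor neuron cultures and 6.25 ± 0.64 in ES cells. For Gapdh it was 0.52 ± 0.02 in Cdx2 and FGF cultures, 0.62 ± 0.03 in motor neuron cultures and 0.80 ± 0.22 in ES cells, with motor neuron and ES arrays overlapping. Exact two-sided permutation tests gave 0.1 for the comparisons with ES cells, the smallest p that 3 arrays against 3 allow, except 0.2 for Gapdh in motor neuron cultures against ES cells. ES cell markers summed to 16.08 to 16.24 on the log2 scale in ES cells and to at most 7.67 elsewhere. Motor neuron markers summed to 9.81 to 10.1 in Cdx2 and FGF cultures, 12.96 to 13.53 in motor neuron cultures and 5.47 to 6.00 in ES cells.

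Levels are the authors' log2 values per probe set, where a step of 1 is a 2-fold change. A gene was represented by its probe set with the highest mean, and levels of different genes are not set against each other. A gene was called higher or lower where its log2 difference was at least 1 in size and limma's p, adjusted over all 10912 genes tested, was under 0.05. All 30 genes passed the filter (over 4 on at least 3 of 9 arrays), and each had an array over 4 in each of the 3 groups.

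Nearly all genes of the list read higher in Cdx2 and FGF cultures than in motor neuron cultures. In Cdx2 and FGF cultures 10 of the 30 genes were called higher than in motor neuron cultures: Slc2a3, Hk2, Pfkp, Aldoc, Eno3, Pdk3, Slc16a1, Ndrg1, P4ha1 and P4ha2. Over all genes tested, 11.2% were called higher. Ldhb was the 1 gene of the list called lower, against 8.61% of all genes tested. The median log2 difference of the list was 0.59, against 0.04 for all genes tested. Of the 30 differences 29 were positive, against 6045 of all 10912 genes tested. The 3 arrays of both groups did not overlap for 22 genes that were higher and 1 that was lower, against 35.1% and 27.6% of all genes tested. Another set read over 13 on all 6 arrays and was not called, with differences of 0.07 to 0.49: Slc2a1, Aldoa, Tpi1, Gapdh, Pgk1, Pgam1, Pkm and Ldha.

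**Figure D1:**
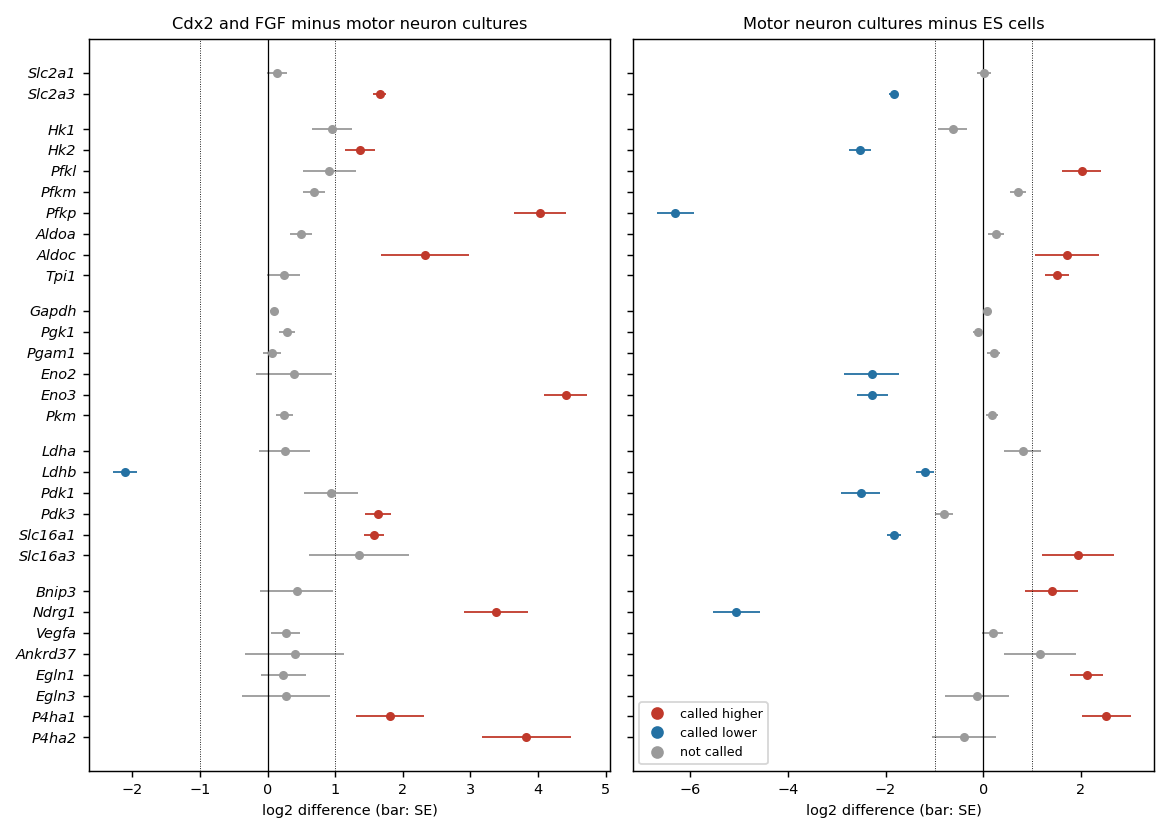
Log2 differences of the 30 genes, Cdx2 and FGF cultures minus motor neuron cultures (left) and motor neuron cultures minus ES cells (right), with the SE of the limma fit as bars. Red points were called higher, blue points lower and grey points were not called; dotted lines mark a log2 difference of 1 either way, and the horizontal scales of the panels differ. On the left Eno3, Pfkp and P4ha2 lie farthest right and Ldhb alone lies left of 0, and on the right Pfkp and Ndrg1 lie farthest left.

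Between motor neuron cultures and ES cells the list moved both ways. In motor neuron cultures 7 genes were called higher than in ES cells (Pfkl, Aldoc, Tpi1, Slc16a3, Bnip3, Egln1 and P4ha1), against 25.9% of all genes tested. Another 9 were called lower (Slc2a3, Hk2, Pfkp, Eno2, Eno3, Ldhb, Pdk1, Slc16a1 and Ndrg1), against 30.7% of all genes tested. The 3 arrays of both groups did not overlap for 7 genes that were higher and 10 that were lower, against 34.5% and 39.4% of all genes tested. The median log2 difference was 0.04 for the list and -0.08 for all genes tested, and both shares called were close to those of all genes tested. Calls of Aldoc, Slc16a3 and Bnip3 were not stable: with only the 6 arrays compared in the fit, their adjusted p-values were 0.0956, 0.0892 and 0.0896, and 4 genes were called higher.

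Cdx2 and FGF cultures set against ES cells had 11 genes called higher (Pfkl, Pfkm, Aldoc, Tpi1, Eno3, Ldha, Slc16a3, Bnip3, Egln1, P4ha1 and P4ha2), against 25.4% of all genes tested. Here 6 genes were called lower (Hk2, Pfkp, Eno2, Ldhb, Pdk1 and Ndrg1), against 27.2% of all genes tested. Arrays did not overlap for 14 genes that were higher and 7 that were lower, against 36.3% and 37.1% of all genes tested. The median log2 difference was 0.45 for the list and -0.00372 for all genes tested. The 3 comparisons share their arrays in pairs, so their values are not independent of each other. Side by side, 6 genes were called lower in motor neuron cultures than in ES cells and higher in Cdx2 and FGF cultures than in motor neuron cultures: Slc2a3, Hk2, Pfkp, Eno3, Slc16a1 and Ndrg1. Aldoc and P4ha1 were called higher at both steps. The direction of Slc2a3 against ES cells depended on the probe set, and the Aldoc call between motor neuron cultures and ES cells was not stable. By group mean, 16 genes ran highest in Cdx2 and FGF cultures and lowest in ES cells, 7 ran highest in ES cells and lowest in motor neuron cultures, 6 ran highest in Cdx2 and FGF cultures and lowest in motor neuron cultures, and Ldhb alone ran highest in ES cells and lowest in Cdx2 and FGF cultures. For 10 genes no comparison made a call on the probe set used: Slc2a1, Hk1, Aldoa, Gapdh, Pgk1, Pgam1, Pkm, Vegfa, Ankrd37 and Egln3. The second probe sets of Hk1 and Vegfa were called higher than in ES cells in both day 5 groups. Joint calls, orders and genes without a call were not counted over all genes tested, so these counts only describe the list.

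**Figure D2:**
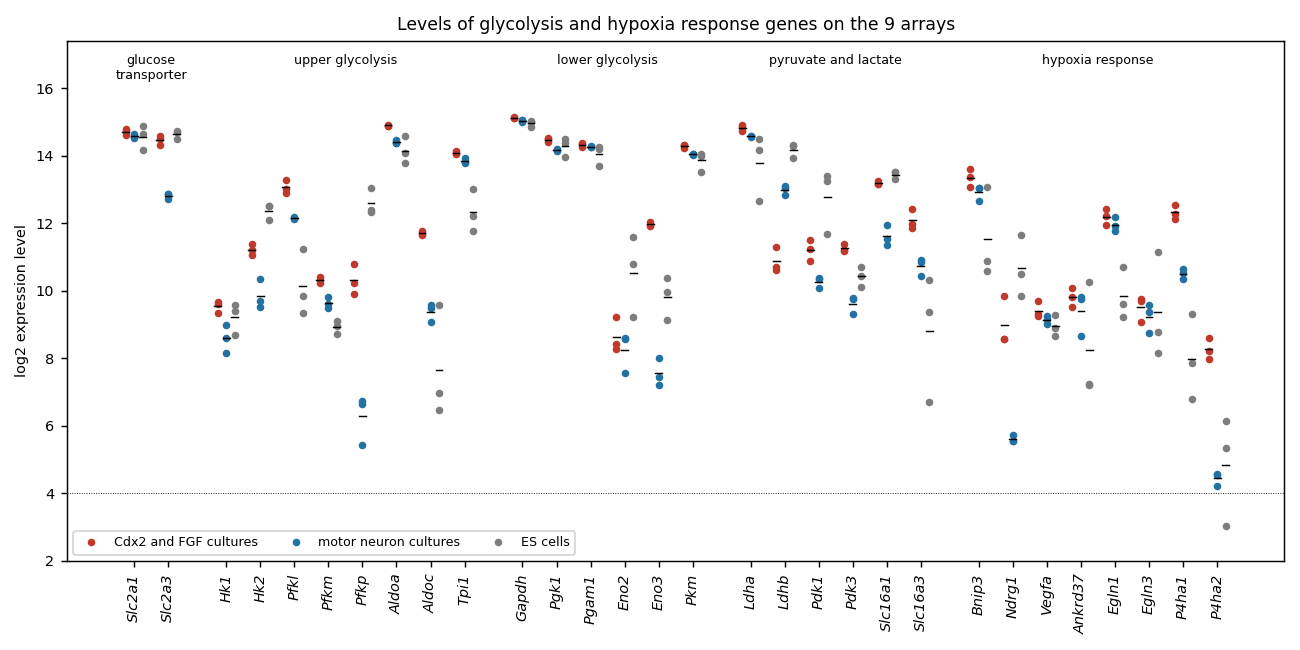
Log2 expression level of each of the 30 genes on all 9 arrays, by role, with Cdx2 and FGF cultures in red, motor neuron cultures in blue and ES cells in grey. Black bars are group means (n = 3) and the dotted line at 4 is the limit of the filter on dim values. The motor neuron cultures sit far below both other groups for Pfkp, Eno3 and Ndrg1, and the SD of the ES arrays was widest for Slc16a3, Ankrd37, Aldoc, P4ha2 and Egln3.

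The promoters of 7 genes are printed to show the sequence in front of genes that moved together or stood apart: Pfkp, Eno3, P4ha1 and P4ha2 were called higher in Cdx2 and FGF cultures, Ldhb was called lower there, and Ankrd37 and Bnip3 are hypoxia response genes that read over 2 log2 units higher on ES replicate 1 than on the other ES arrays. Each is the 250 bases before the RefSeq start of the gene in build GRCm38.p6, read 5′ to 3′ on the strand of the gene. Capitals mark ACGTG or GCGTG on either strand, the core that HIF is known to bind, and a match is a description of the letters and not a binding site. The windows lie at chr13:6648772-6649021 (Pfkp, minus strand), chr11:70656926-70657175 (Eno3, plus strand), chr10:59323046-59323295 (P4ha1, plus strand), chr11:54100674-54100923 (P4ha2, plus strand), chr6:142507958-142508207 (Ldhb, minus strand), chr8:45999851-46000100 (Ankrd37, minus strand) and chr7:138909507-138909756 (Bnip3, minus strand).
Pfkp: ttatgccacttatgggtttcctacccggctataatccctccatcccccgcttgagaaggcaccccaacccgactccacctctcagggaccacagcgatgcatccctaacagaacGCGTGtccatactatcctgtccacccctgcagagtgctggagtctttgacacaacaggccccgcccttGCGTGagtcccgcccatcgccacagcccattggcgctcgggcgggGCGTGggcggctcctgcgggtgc
Eno3: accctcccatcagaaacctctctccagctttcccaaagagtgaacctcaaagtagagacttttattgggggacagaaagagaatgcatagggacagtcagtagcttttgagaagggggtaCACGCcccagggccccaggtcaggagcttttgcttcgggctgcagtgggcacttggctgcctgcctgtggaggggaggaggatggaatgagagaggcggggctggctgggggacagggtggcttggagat
P4ha1: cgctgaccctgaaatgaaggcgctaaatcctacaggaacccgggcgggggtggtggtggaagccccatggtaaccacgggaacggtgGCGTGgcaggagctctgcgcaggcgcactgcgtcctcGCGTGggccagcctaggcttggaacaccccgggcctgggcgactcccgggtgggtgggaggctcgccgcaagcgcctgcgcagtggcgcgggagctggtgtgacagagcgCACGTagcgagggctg
P4ha2: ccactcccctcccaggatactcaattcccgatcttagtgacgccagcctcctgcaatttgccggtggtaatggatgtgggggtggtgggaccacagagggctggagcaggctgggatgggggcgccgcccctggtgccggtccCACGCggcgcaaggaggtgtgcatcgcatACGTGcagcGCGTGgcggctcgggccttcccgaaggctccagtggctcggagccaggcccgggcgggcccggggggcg
Ldhb: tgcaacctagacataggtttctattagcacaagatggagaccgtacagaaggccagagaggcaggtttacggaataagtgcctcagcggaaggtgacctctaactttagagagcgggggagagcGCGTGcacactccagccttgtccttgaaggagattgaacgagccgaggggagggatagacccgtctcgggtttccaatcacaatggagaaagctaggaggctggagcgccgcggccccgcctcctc
Ankrd37: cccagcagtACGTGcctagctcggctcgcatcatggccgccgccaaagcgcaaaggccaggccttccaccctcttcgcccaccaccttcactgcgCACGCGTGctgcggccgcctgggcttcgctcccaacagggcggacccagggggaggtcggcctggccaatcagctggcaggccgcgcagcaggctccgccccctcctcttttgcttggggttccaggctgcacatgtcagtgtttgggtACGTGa
Bnip3: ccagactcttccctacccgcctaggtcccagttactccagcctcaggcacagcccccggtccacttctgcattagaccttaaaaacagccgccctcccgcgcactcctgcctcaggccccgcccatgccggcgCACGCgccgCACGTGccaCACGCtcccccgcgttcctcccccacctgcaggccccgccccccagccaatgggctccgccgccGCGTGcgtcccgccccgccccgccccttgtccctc
Counting overlapping matches on both strands, the Pfkp, P4ha1 and P4ha2 windows held 3 each, Ankrd37 held 4, Bnip3 held 5, and Eno3 and Ldhb held 1 each. Bnip3 has CACGTG, which reads as a match on either strand, and Ankrd37 has the overlapping pair CACGCGTG. The gene called lower and a gene called 21.2-fold higher each had a single match. Egln3, another hypoxia response gene, read 2.34 higher on ES replicate 1 than on the higher of the other ES arrays. Its window, not printed here, held 1 match. RefSeq windows were at hand for 30 of the 32 listed genes (43 windows, since some genes have several starts, with Eno1 and Gpi1 among them and Slc2a3 and Ndrg1 not). Of the 43 windows, 34 (79.1%) held ACGTG or GCGTG, against 38.6% of all 32851 windows of the same length. ACGTG alone was in 20 of the 43 (46.5%, against 16.6% of all windows) and GCGTG alone in 25 (58.1%, against 28.2%), and some windows held both. Base composition differed as well, with a median GC content of 61.6% in these windows and 52.4% in all of them, and its part in the share of matches was not tested.

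Glucose transport showed the split between isoforms. Slc2a1 (GLUT1), the widespread glucose transporter, averaged 14.71 ± 0.09 in Cdx2 and FGF cultures, 14.57 ± 0.06 in motor neuron cultures and 14.55 ± 0.36 in ES cells (log2, SD, n = 3 each), and no comparison called it. Slc2a3 (GLUT3), the high-affinity transporter typical of neurons and the early embryo, read 14.59, 14.32 and 14.50 in Cdx2 and FGF cultures, 12.87, 12.85 and 12.70 in motor neuron cultures, against 14.50, 14.74 and 14.70 in ES cells. On this probe set the motor neuron arrays lay below all the others, and the Cdx2 and FGF arrays overlapped the ES arrays. Slc2a3 was 3.17-fold higher in Cdx2 and FGF than in motor neuron cultures (log2 difference 1.66, SE 0.10, adjusted p = 1.90e-06). Its order against ES cells depended on the probe set. The 4 Slc2a3 probe sets all gave a higher call in Cdx2 and FGF than in motor neuron cultures, with log2 differences of 1.66 to 4.98. In motor neuron cultures against ES cells 2 of them gave a lower call (-1.84 and -2.14) and 1 a higher call (1.47). In Cdx2 and FGF cultures against ES cells 2 gave a higher call (5.30 and 3.52) and the others no call (-0.18 and -0.31). The comparison of Slc2a3 with ES cells therefore has no settled direction.

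Among the hexokinases, which trap glucose in the cell, the inducible Hk2 changed and the widespread Hk1 was not called on the probe set used. Hk2 read 11.38, 11.05 and 11.20 in Cdx2 and FGF cultures, 9.69, 10.33 and 9.51 in motor neuron cultures, against 12.52, 12.09 and 12.51 in ES cells, with no overlap between any groups. It was 2.58-fold higher in Cdx2 and FGF than in motor neuron cultures (log2 difference 1.37, SE 0.22, adjusted p = 0.00133). It was 5.77-fold lower in motor neuron cultures than in ES cells (log2 difference -2.53, SE 0.22, adjusted p = 4.76e-06). Hk1 averaged 9.54 ± 0.18 in Cdx2 and FGF cultures, 8.59 ± 0.42 in motor neuron cultures and 9.22 ± 0.47 in ES cells (SD, n = 3 each). Its log2 difference between Cdx2 and FGF and motor neuron cultures, 0.95 (SE 0.29, adjusted p = 0.0317), fell just short of the fold threshold, and without motor neuron replicate 1 it was 1.16 (adjusted p = 0.0291) and called. With means of probe sets it was 1.07 (limma adjusted p = 0.0243) and called. The second Hk1 probe set was called higher in motor neuron cultures than in ES cells, by 3.76 (3.39 with values under 4 raised to 4). In Cdx2 and FGF cultures against ES cells it was called higher by 4.95 (4.57 raised).

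The 3 phosphofructokinase isoforms, which carry the committed step of glycolysis, differed from each other. Pfkp, the platelet isoform, read 10.80, 9.89 and 10.23 in Cdx2 and FGF cultures, 6.75, 6.65 and 5.44 in motor neuron cultures, against 13.03, 12.33 and 12.39 in ES cells. No group overlapped another. Pfkp was 16.3-fold higher in Cdx2 and FGF than in motor neuron cultures (log2 difference 4.03, SE 0.38, adjusted p = 4.54e-05) and 79.1-fold lower in motor neuron cultures than in ES cells (log2 difference -6.30, SE 0.38, adjusted p = 3.78e-07). Its second probe set was called in both of these comparisons as well, at 2.17 and -1.74. The third was under 4 on all motor neuron arrays and on 2 of 3 ES arrays, so it gave only a bound of at least 2.37-fold higher in Cdx2 and FGF than in motor neuron cultures and no size against ES cells. Pfkl, the liver isoform, ran in another order: 13.27, 13.01 and 12.90 in Cdx2 and FGF cultures, 12.11, 12.19 and 12.15 in motor neuron cultures, against 11.25, 9.32 and 9.83 in ES cells. Its groups did not overlap either, and it was called 4.04-fold higher in motor neuron cultures than in ES cells (log2 difference 2.01, SE 0.39, adjusted p = 0.00115). Between Cdx2 and FGF and motor neuron cultures the Pfkl difference of 0.91 (SE 0.39, adjusted p = 0.111) was not called. Pfkm, the muscle isoform, read 10.40, 10.32 and 10.23 in Cdx2 and FGF cultures, 9.61, 9.80 and 9.48 in motor neuron cultures, against 9.09, 8.95 and 8.72 in ES cells. Each step was under 1 on the log2 scale (0.69 and 0.71), and the difference of Cdx2 and FGF cultures from ES cells was called (1.40, SE 0.17, adjusted p = 4.89e-05).

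Of the aldolases, which split the phosphorylated sugar into trioses, Aldoa is the widespread form and Aldoc that of brain. Aldoc read 11.70, 11.65 and 11.76 in Cdx2 and FGF cultures, 9.57, 9.50 and 9.06 in motor neuron cultures, against 9.56, 6.97 and 6.46 in ES cells. The Cdx2 and FGF arrays lay above all others, and ES replicate 1 lay among the motor neuron arrays. Aldoc was 5.03-fold higher in Cdx2 and FGF than in motor neuron cultures (log2 difference 2.33, SE 0.65, adjusted p = 0.0227). That call was lost on leaving out any 1 of the 6 arrays compared, at adjusted p-values of 0.0590 to 0.0748, while the difference stayed between 2.17 and 2.43. The large SE came from the ES arrays, whose SD was 1.66, against 0.05 in Cdx2 and FGF cultures and 0.27 in motor neuron cultures. Aldoa averaged 14.89 ± 0.02 in Cdx2 and FGF cultures, 14.40 ± 0.04 in motor neuron cultures and 14.14 ± 0.41 in ES cells (SD, n = 3 each) and was not called. Tpi1, which interconverts the 2 triose phosphates, read 14.08, 14.04 and 14.14 in Cdx2 and FGF cultures, 13.94, 13.82 and 13.79 in motor neuron cultures, against 13.02, 11.78 and 12.22 in ES cells. It was 2.84-fold higher in motor neuron cultures than in ES cells (log2 difference 1.51, SE 0.25, adjusted p = 0.000388), in all 3 of its probe sets.

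Lower glycolysis, which yields ATP and pyruvate, had calls only among the enolases. Gapdh, Pgk1, Pgam1 and Pkm read between 13.52 and 15.13 on all 9 arrays, and their differences in the 3 comparisons ran from -0.10 to 0.43. Gapdh was read from the 3 Affymetrix control probe sets, whose 3′ member is the one used. Eno3, the muscle enolase, read 12.02, 11.92 and 11.94 in Cdx2 and FGF cultures, 7.21, 7.44 and 8.01 in motor neuron cultures, against 9.97, 9.14 and 10.37 in ES cells. No group overlapped another, and Eno3 had the largest difference of the list between Cdx2 and FGF and motor neuron cultures, 21.2-fold higher (log2 difference 4.41, SE 0.31, adjusted p = 7.03e-06). It was 4.83-fold lower in motor neuron cultures than in ES cells (log2 difference -2.27, SE 0.31, adjusted p = 0.000114). Eno2, the neuronal enolase, read 9.22, 8.43 and 8.27 in Cdx2 and FGF cultures, 8.60, 8.58 and 7.56 in motor neuron cultures, against 11.59, 10.78 and 9.23 in ES cells. ES cells were highest for Eno2 and the day 5 groups overlapped, and it was 4.89-fold lower in motor neuron cultures than in ES cells (log2 difference -2.29, SE 0.56, adjusted p = 0.00449). The summed level of 5 skeletal and cardiac muscle markers was 12.1 to 12.2 in Cdx2 and FGF cultures. It was 4.55 to 4.63 both in motor neuron cultures and in ES cells, where all 5 markers were under 4. Of these 5 markers only Actc1 was over 4 in Cdx2 and FGF cultures, and Myod1, Myog, Ckm and Tnnt2 were under 4 on all 9 arrays. The summed level of 5 smooth muscle and mesenchyme markers was 14.7 to 14.8 in Cdx2 and FGF cultures, 5.47 to 8.58 in motor neuron cultures and 10.8 to 14.0 in ES cells. The part of either group of markers in the Eno3 levels was not tested.

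Of the lactate dehydrogenase subunits, Ldhb was called lower from ES cells to motor neuron cultures and from these to Cdx2 and FGF cultures, and Ldha at neither step. Ldhb, the subunit typical of heart and of oxidative tissue, read 11.29, 10.71 and 10.62 in Cdx2 and FGF cultures, 13.08, 13.02 and 12.83 in motor neuron cultures, against 13.94, 14.27 and 14.30 in ES cells. The 3 groups did not overlap. Ldhb was 4.31-fold lower in Cdx2 and FGF than in motor neuron cultures (log2 difference -2.11, SE 0.18, adjusted p = 2.31e-05), and its 4 probe sets gave -2.27 to -2.11, all called. It was also lower in motor neuron cultures than in ES cells (log2 difference -1.19, SE 0.18, adjusted p = 0.000212), where the other 3 probe sets gave -0.94 to -0.61 and were not called. Ldha, the subunit of muscle and of hypoxic cells, read 14.85, 14.72 and 14.91 in Cdx2 and FGF cultures, 14.55, 14.59 and 14.58 in motor neuron cultures, against 14.48, 12.66 and 14.18 in ES cells. Ldha was not called between Cdx2 and FGF and motor neuron cultures (0.25, SE 0.38, adjusted p = 0.685). Its call in Cdx2 and FGF cultures against ES cells (1.06, SE 0.38, adjusted p = 0.0297) was not stable. Without ES replicate 2 the difference was 0.50. The call was also lost without any 1 of the Cdx2 and FGF arrays (adjusted p-values of 0.0600 to 0.0764). With only the 6 arrays compared the adjusted p was 0.0845.

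Both pyruvate dehydrogenase kinases on the list hold pyruvate back from mitochondria, and both ran lowest in motor neuron cultures. Pdk3 read 11.37, 11.20 and 11.18 in Cdx2 and FGF cultures, 9.30, 9.77 and 9.77 in motor neuron cultures, against 10.70, 10.12 and 10.44 in ES cells. It was 3.11-fold higher in Cdx2 and FGF than in motor neuron cultures (log2 difference 1.64, SE 0.19, adjusted p = 0.00018). Pdk1, a HIF target, read 11.49, 10.89 and 11.25 in Cdx2 and FGF cultures, 10.07, 10.39 and 10.34 in motor neuron cultures, against 13.41, 13.25 and 11.66 in ES cells. The groups did not overlap for either kinase. Pdk1 was 5.69-fold lower in motor neuron cultures than in ES cells (log2 difference -2.51, SE 0.40, adjusted p = 0.000302), and its difference of 0.95 between the day 5 groups was not called (adjusted p = 0.105). Its 4 probe sets spread widely in motor neuron cultures against ES cells, with 2 called lower at -2.51 and -1.78, 1 near 0 (0.06) and 1, under 4 on all motor neuron arrays, at least 44.1-fold lower.

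The monocarboxylate transporters carry lactate across the membrane. Slc16a1 (MCT1), the widespread form, read 13.15, 13.17 and 13.24 in Cdx2 and FGF cultures, 11.36, 11.53 and 11.95 in motor neuron cultures, against 13.50, 13.51 and 13.29 in ES cells. It was 2.98-fold higher in Cdx2 and FGF than in motor neuron cultures (log2 difference 1.58, SE 0.14, adjusted p = 3.58e-05) and 3.53-fold lower in motor neuron cultures than in ES cells (log2 difference -1.82, SE 0.14, adjusted p = 2.36e-06). The Cdx2 and FGF arrays all lay just under the ES arrays, with a difference of -0.25 that was not called. Slc16a3 (MCT4), the exporter of highly glycolytic cells and a HIF target, read 12.42, 11.84 and 11.98 in Cdx2 and FGF cultures, 10.90, 10.85 and 10.44 in motor neuron cultures, against 10.32, 6.70 and 9.37 in ES cells. The day 5 groups did not overlap, yet the difference of 1.35 (SE 0.74, adjusted p = 0.204) was not called in the fit of all 9 arrays. With only the 6 arrays compared the same difference was called (adjusted p = 0.00336), and likewise without ES replicate 2 (adjusted p = 0.00537), the array that read 6.70.

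The prolyl 4-hydroxylase subunits, which prepare collagen for folding and are HIF targets, rose in Cdx2 and FGF cultures. P4ha2 read 8.60, 7.98 and 8.23 in Cdx2 and FGF cultures, 4.22, 4.57 and 4.53 in motor neuron cultures, against 6.14, 5.33 and 3.04 in ES cells. It was 14.2-fold higher in Cdx2 and FGF than in motor neuron cultures (log2 difference 3.83, SE 0.66, adjusted p = 0.00185), and the motor neuron arrays lay barely above the limit of 4. P4ha1 read 12.55, 12.27 and 12.13 in Cdx2 and FGF cultures, 10.33, 10.64 and 10.53 in motor neuron cultures, against 9.31, 7.86 and 6.80 in ES cells. It stepped up without overlap, 3.51-fold higher in Cdx2 and FGF than in motor neuron cultures (log2 difference 1.81, SE 0.50, adjusted p = 0.0214) and 5.72-fold higher in motor neuron cultures than in ES cells (log2 difference 2.52, SE 0.50, adjusted p = 0.0013). The call between the day 5 groups was lost on leaving out any 1 of the 6 arrays compared (adjusted p-values of 0.0522 to 0.0791, differences of 1.70 to 1.91). Markers of collagen-making cells moved in the same comparison: the summed level of 7 fibroblast markers was 9.29 to 9.61 in Cdx2 and FGF cultures, 5.46 to 5.51 in motor neuron cultures and 10.34 to 12.95 in ES cells. All 7 were under 4 in motor neuron cultures and 3 of them (Dcn, Lum and Postn) in Cdx2 and FGF cultures, and their part in the P4ha1 and P4ha2 levels was not tested.

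Ndrg1, a gene of growth arrest and stress that responds strongly to hypoxia, read 9.83, 8.58 and 8.57 in Cdx2 and FGF cultures, 5.56, 5.72 and 5.56 in motor neuron cultures, against 11.65, 9.85 and 10.50 in ES cells. On the probe set used, no group overlapped another. Ndrg1 was 10.4-fold higher there in Cdx2 and FGF than in motor neuron cultures (log2 difference 3.39, SE 0.48, adjusted p = 0.000561). It was 33.3-fold lower in motor neuron cultures than in ES cells (log2 difference -5.06, SE 0.48, adjusted p = 7.69e-06). The probe set used ends in x_at, which marks probes that may also match other transcripts. The 1 Ndrg1 probe set free of such marks that passed the filter gave 2.03 (SE 0.85, adjusted p = 0.108) between the day 5 groups, or 1.97 with values under 4 raised to 4. In motor neuron cultures against ES cells it gave -2.24 (-2.18 raised). In Cdx2 and FGF cultures against ES cells the probe set used gave -1.67 and was called lower. The other tested probe sets gave -0.99 and -0.21 there, with overlapping arrays and no call.

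The other 5 hypoxia response genes were not called between the day 5 groups. Bnip3, a mitophagy receptor, read 13.59, 13.07 and 13.37 in Cdx2 and FGF cultures, 13.04, 13.04 and 12.66 in motor neuron cultures, against 13.07, 10.58 and 10.89 in ES cells. Egln1 (PHD2), the main oxygen sensor of the pathway, read 12.40, 11.95 and 12.21 in Cdx2 and FGF cultures, 11.91, 12.18 and 11.77 in motor neuron cultures, against 10.71, 9.59 and 9.22 in ES cells. Egln1 was 4.33-fold higher in motor neuron cultures than in ES cells (log2 difference 2.11, SE 0.33, adjusted p = 0.00026), with no overlap. Vegfa, the angiogenic growth factor, averaged 9.41 ± 0.25 in Cdx2 and FGF cultures, 9.14 ± 0.12 in motor neuron cultures and 8.95 ± 0.32 in ES cells. Ankrd37, an ankyrin repeat gene used as a hypoxia marker, averaged 9.80 ± 0.28 in Cdx2 and FGF cultures, 9.40 ± 0.65 in motor neuron cultures and 8.23 ± 1.76 in ES cells. Egln3, a HIF-induced hydroxylase, averaged 9.50 ± 0.37 in Cdx2 and FGF cultures, 9.23 ± 0.43 in motor neuron cultures and 9.36 ± 1.56 in ES cells (SD, n = 3 each). Differences of these 5 genes between Cdx2 and FGF and motor neuron cultures were 0.23 to 0.43, with adjusted p-values of 0.4 to 0.82.

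The 3 ES arrays differed among themselves in these genes, a pattern chosen after its values were seen and given without a test. ES replicate 1 read highest of the 3 ES arrays for 24 of the 30 genes (80%), against 33.1% of all genes tested. It stood at least 1 log2 unit over both other ES arrays for 8 of the 30 genes (26.7%), against 2.29% of all genes tested. Of the 8 hypoxia response genes 6 were among them. Ankrd37 read 10.26 on ES replicate 1 and 7.25 and 7.19 on the others. Egln3 read 11.13 there against 8.16 and 8.79, and Bnip3 13.07 against 10.58 and 10.89. Among enzymes Aldoc, at 9.56 against 6.97 and 6.46, and Pfkl did the same, and P4ha1, Ndrg1 and Egln1 made up the 8. On this array the level of Bnip3 reached that of the Cdx2 and FGF cultures. Of 21 further HIF target genes tested, ES replicate 1 was highest for 13 (61.9%) and led by at least 1 for 4 (19%), namely Ppp1r3c, Fam162a, Car12 and Plod2. Of 11 genes of the tricarboxylic acid cycle it was highest for 4 and led by 1 for 0. Hif1a itself read 13.50, 13.43 and 13.54 on the ES arrays. The summed level of the fibroblast markers ran the other way, at 10.34 on ES replicate 1 and 11.41 and 12.95 on the others. Col1a1, the brightest of them, read 10.15 there and 10.45 and 12.68 on the others. Not every marker did so: Dcn read 6.85 there and 2.17 and 4.41 on the others, and Pdgfrb read between the others. The Actb control (3′ minus 5′) read 1.87 there and 2.04 and 2.30 on the others, while the Gapdh and Tfrc controls read between the others there. The part of these markers and controls in the pattern was not tested.

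**Figure D3:**
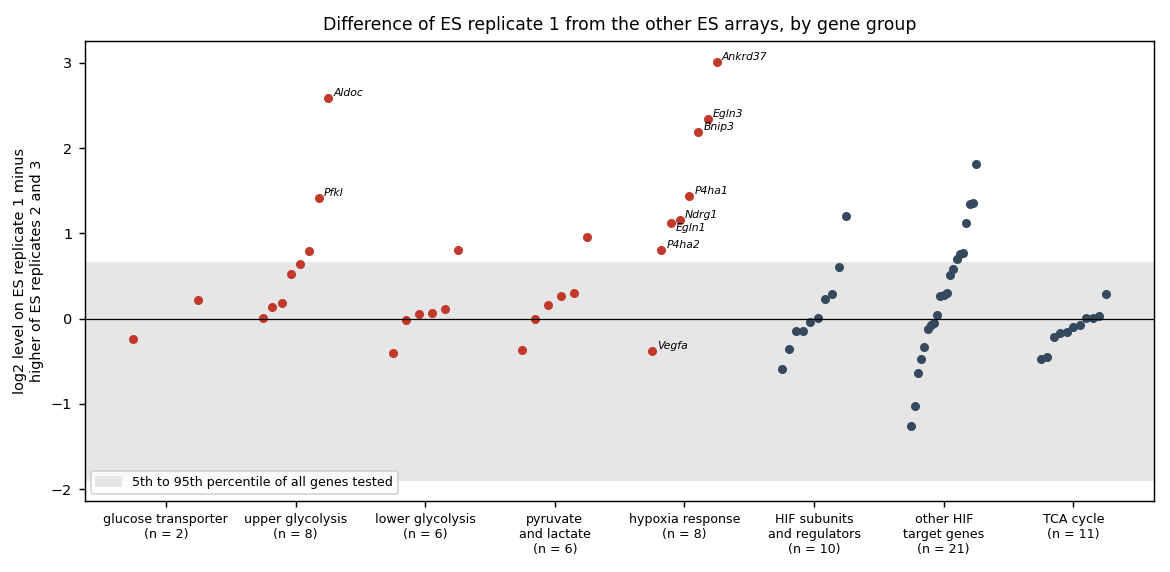
Log2 level on ES replicate 1 minus the higher of ES replicates 2 and 3, 1 point per gene, for the roles of the list (red) and for 3 further gene lists (dark blue); the grey band spans the 5th to 95th percentile of all genes tested. Of the 8 hypoxia response genes 7 lie above the band, Vegfa does not, and no gene of the tricarboxylic acid cycle does.

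The spread of the ES arrays set what could be called. The median SD within a group over the 30 genes was 0.18 in Cdx2 and FGF cultures, 0.17 in motor neuron cultures and 0.55 in ES cells, and over all genes tested it was 0.11 in Cdx2 and FGF cultures, 0.15 in motor neuron cultures and 0.38 in ES cells. Without ES replicate 1, Ankrd37 was called higher in motor neuron cultures than in ES cells (log2 difference 2.18, adjusted p = 0.000721) and in Cdx2 and FGF cultures than in ES cells (2.58, adjusted p = 0.000307). Egln3 was then called higher in Cdx2 and FGF cultures than in ES cells (1.03, adjusted p = 0.0233) and Ldha in motor neuron cultures than in ES cells (1.16, adjusted p = 0.0182). All 3 of these genes read highest of the ES arrays on ES replicate 1, so leaving it out had to raise these differences. The adjusted p-values do not allow for that choice, and these calls are no separate support. With that array left out, the 11 calls between Cdx2 and FGF and motor neuron cultures were all made the same way.

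Probe sets of 1 gene did not always agree, and calls in opposite directions lay only in the comparisons with ES cells. Between the day 5 groups the sizes differed, as for Slc2a3 (1.66 to 4.98), and Egln3 gave 0.27 and -0.15 without a call. Of the 61 probe sets tested, 17 were called higher and 4 lower between Cdx2 and FGF and motor neuron cultures, against 11.1% and 8.79% of all 19554 probe sets tested. In that comparison none of the 16 genes with several tested probe sets had calls in opposite directions. In motor neuron cultures against ES cells 15 probe sets were called higher and 16 lower (32.7% and 27.2% of all probe sets tested), and in Cdx2 and FGF cultures against ES cells 21 and 11 (32.2% and 23.9%). Opposite calls arose for Slc2a3 in motor neuron cultures against ES cells and for Pfkp in Cdx2 and FGF cultures against ES cells, where 1 probe set was called higher and 1 lower; the higher one was under 4 on 2 of 3 ES arrays (1.49, or 1.18 with values under 4 raised to 4). A further 4 genes had a second probe set that was far dimmer in ES cells. The second Vegfa probe set read 9.90, 9.79 and 9.45 in Cdx2 and FGF cultures, 9.07, 9.04 and 8.85 in motor neuron cultures, against 5.20, 5.00 and 3.07 in ES cells, a log2 difference of 4.56 (SE 0.50) in motor neuron cultures against ES cells where the first gave 0.19; with values under 4 raised to 4 the second gave 4.25. The second Hk1 probe set gave 3.76 in that comparison (3.39 with values under 4 raised), where the first gave -0.63. From the second and first probe set Egln1 gave 6.23 and 2.11, and P4ha1 4.29 (4.04 raised) and 2.52. The Actb and Tfrc controls (3′ minus 5′) moved in the same comparison, and their part was not tested.

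**Figure D4:**
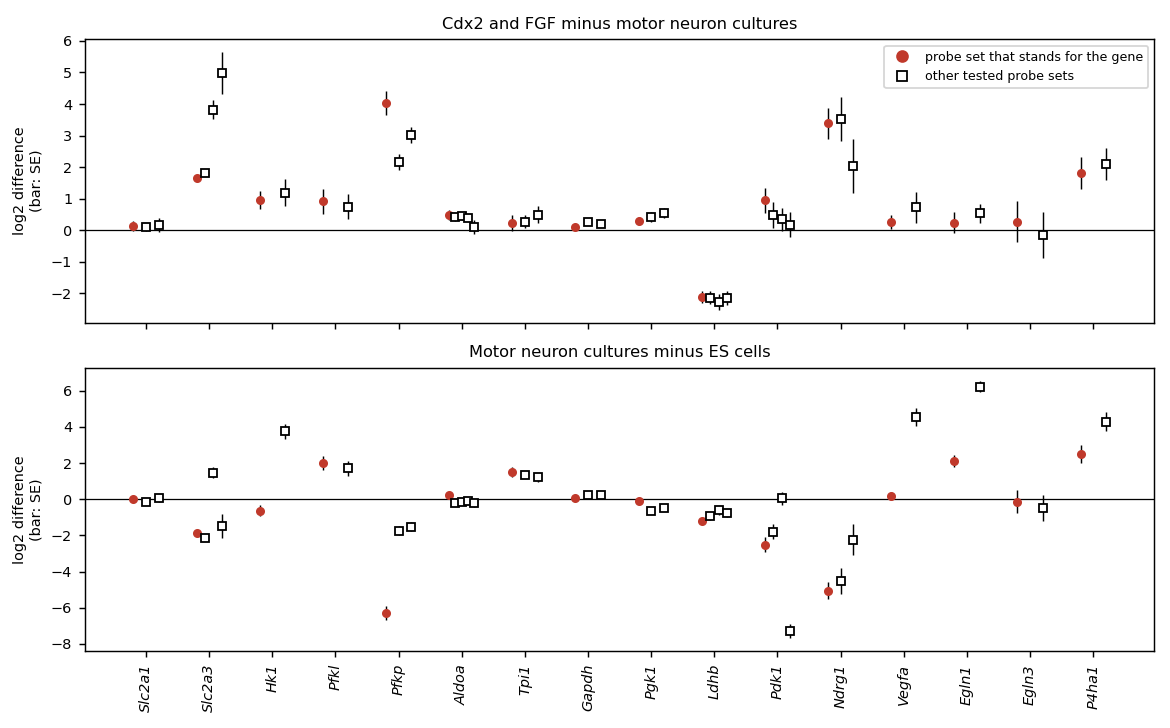
Log2 difference (bars: SE of the limma fit) of every tested probe set of the 16 genes with several, Cdx2 and FGF cultures minus motor neuron cultures (top) and motor neuron cultures minus ES cells (bottom); red circles are the probe sets that stand for the gene and open squares the others, with values under 4 plotted as deposited. In the top panel the probe sets of a gene lie on 1 side of 0 for all genes but Egln3, and in the bottom panel those of Slc2a1, Slc2a3, Hk1, Aldoa and Pdk1 straddle it.

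Among other genes of the hypoxia pathway, 9 targets were called between the day 5 groups and of the HIF subunits only Arnt2. Of 28 further HIF target genes listed, 21 were tested, and 9 were called higher and 0 lower in Cdx2 and FGF than in motor neuron cultures, against 11.2% and 8.61% of all genes tested. The median log2 difference of these targets was 0.85, against 0.04 for all genes tested. Gbe1, which branches glycogen, averaged 9.74 ± 0.16 in Cdx2 and FGF cultures and 5.53 ± 0.57 in motor neuron cultures (log2 difference 4.20, SE 0.41, adjusted p = 5.91e-05). Plod1, a collagen lysyl hydroxylase, differed by 3.13 and Bhlhe40, a transcriptional repressor, by 3.13, while Car12, a carbonic anhydrase under 4 in motor neuron cultures, was at least 8.62-fold higher. Of 10 HIF subunits and regulators 0 were called higher and only Arnt2, the neural partner of HIF, lower (log2 difference -1.50, SE 0.22, adjusted p = 0.00081); 4 of the 10 had an adjusted p under 0.05 in limma. Hif1a averaged 11.35 ± 0.07 in Cdx2 and FGF cultures, 11.45 ± 0.17 in motor neuron cultures and 13.49 ± 0.05 in ES cells.

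In motor neuron cultures against ES cells, 4 of the 10 HIF subunits and regulators were called higher and 4 lower, against 25.9% and 30.7% of all genes tested. Arnt2, under 4 in ES cells, was at least 60.7-fold higher in motor neuron cultures, and Epas1 (HIF2α) was 30.0-fold lower there (log2 difference -4.91, SE 0.39, adjusted p = 2.44e-06). Siah2, which targets the Egln enzymes for breakdown, and Hif1an, which hydroxylates HIF, were higher by 2.55 (2.48 with values under 4 raised to 4) and 2.16. Of the 21 further HIF targets 3 were called higher and 8 lower, with a median of -0.60, against -0.08 for all genes tested. Plod1, Hmox1 and Bhlhe40 were lower by log2 differences of -3.61, -3.48 and -3.09, and Stc2, a secreted glycoprotein, was higher by 3.16.

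Isoforms of other tissues and side enzymes of glycolysis were mostly dim, with 6 of 20 listed genes tested. Between Cdx2 and FGF and motor neuron cultures 1 was called higher and 2 lower (11.2% and 8.61% of all genes tested). Pgam2, the muscle form of phosphoglycerate mutase, averaged 8.50 ± 0.49 in Cdx2 and FGF cultures and 3.87 ± 0.38 in motor neuron cultures (log2 difference 4.63, SE 0.43, adjusted p = 3.91e-05), which with values under 4 raised to 4 is at least 21.2-fold. Hk3, a hexokinase of blood cells, was under 4 in Cdx2 and FGF cultures and averaged 7.60 ± 0.90 in motor neuron cultures, at least 12.2-fold lower. Tigar, which restrains glycolysis by lowering a sugar phosphate that activates phosphofructokinase, was 2.23-fold lower (log2 difference -1.16, SE 0.23, adjusted p = 0.00436). In motor neuron cultures against ES cells 2 were called higher (Hk3 and Bpgm) and 2 lower (Pfkfb2 and Adpgk), against 25.9% and 30.7% of all genes tested.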

How the data were processed

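A NuGEN Ovation kit served to amplify and label the RNA for Affymetrix mouse arrays, per the labels' protocols. The submitters' processing notes name GCRMA and limma, and their versions and options are not given in the sources used here. The values deposited by the authors are log2 levels per probe set, running from 2.165 to 16.12; their range and shape gave the log2 scale, and they were used without further normalization. Of 45101 probe sets, 34958 named 1 gene symbol in the platform annotation, 932 named several and 9211 were unnamed here; 4 probe sets that named a listed gene together with others were left out.

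The brightest probe set (by mean level) stood for a gene. The fit used limma 3.58.1 (lmFit on group means of the 9 arrays, eBayes, intensity trend) under R 4.3.3, with 6 residual degrees of freedom. Benjamini-Hochberg adjustment ran over the 10912 genes tested, or over the 19554 probe sets tested where probe sets are compared. Differences are group means, the first named minus the second. Where no array of the dimmer group reached 4, folds are lower bounds with values under 4 raised to 4, and where only some of its arrays lay under 4, the difference with those values raised is given beside the fitted one. The fit was tested on simulated data with known changes. Since the labels do not say that replicates came from separate cultures, p-values reflect only how far these arrays spread, which may be technical, and the number of arrays limits the precision.

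Every gene of the list is named, with its value on each array where any comparison called it or its probe sets were called in opposite directions; of each further gene list, up to 4 genes per comparison are named, called genes first and then by size. The list, the further lists and the tests were chosen with earlier results of these data known. Alternatives covered the normalization, scaling, filter, variance prior, choice of probe set, array weights, arrays in the fit, a replicate block and leaving out each array. Promoter sequences are RefSeq's, from build GRCm38.p6, matched by symbol.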

Additional observations from a re-analysis of the deposited data

How the results depend on the processing

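Between Cdx2 and FGF and motor neuron cultures, all 11 called genes of the list were called the same way under quantile normalization, values under 4 raised to 4, both centrings, other variance priors, a filter at 6, means of probe sets, array weights and only the 6 arrays compared. Without a filter 9 were (Aldoc and P4ha1 were lost) and without x_at and s_at probe sets 10 (Ndrg1 was lost). Leaving out single arrays gave 8 to 11 genes of the list called higher, 1 lower and a median of 0.54 to 0.68 there, with 991 to 1288 and 806 to 994 of all genes. For motor neuron cultures against ES cells it gave 4 to 9 higher, 9 to 10 lower and a median of -0.07 to 0.21 (2701 to 2860 and 3192 to 3365 of all genes), and for Cdx2 and FGF cultures against ES cells 10 to 13 higher, 6 lower and a median of 0.37 to 0.75 (2629 to 2806 and 2850 to 3011). The count of genes higher in motor neuron cultures than in ES cells was also 4 without a filter. Means of probe sets gave a list median of 0.94 for Cdx2 and FGF cultures against ES cells, turned Slc2a3 to 2.08 there, and turned Hk1 to 1.57 between motor neuron cultures and ES cells. Without x_at and s_at probe sets Slc2a3 turned to 5.30 (Cdx2 and FGF cultures against ES cells) and 1.47 (motor neuron cultures against ES cells); the cause was not tested. With each probe set tested by itself, 2165 were called higher and 1718 lower between the day 5 groups (17 and 4 of the list), 6400 and 5314 between motor neuron cultures and ES cells (15 and 16), and 6289 and 4678 for Cdx2 and FGF cultures against ES cells (21 and 11), out of more features. Deviations of same-numbered arrays correlated weakly (-0.03 to 0.08). Between the day 5 groups same-numbered arrays gave 0.04 to 0.08 and the others -0.1 to 0.05. Values this weak, from 3 arrays per group, cannot show whether the numbers pair arrays. The replicate block gave 10 higher and 1 lower of the list between the day 5 groups, with 1206 and 931 of all genes. It changed none of the calls of the list. Of calls over all genes, 56.5% were higher between the day 5 groups, 45.8% between motor neuron cultures and ES cells and 48.3% for Cdx2 and FGF cultures against ES cells. Median centring gave 57%, 58.1% and 62.7% and moved the median of all genes to 0.35 and 0.43 in the ES comparisons, and centring on the genes tested, added after seeing the data, gave 52.9%, 50.6% and 51.7%. The number of arrays and the spread of the ES arrays limit the precision.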

Other observations

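Further lists cover pyruvate entry into mitochondria, the tricarboxylic acid cycle, pathways that branch from glycolysis and its transcriptional regulators. Between the day 5 groups 11.2% of all genes tested were called higher and 8.61% lower, and each list had 0 to 2 calls. Of 11 genes of pyruvate entry tested, 0 were called higher and 2 lower in Cdx2 and FGF than in motor neuron cultures: Mpc1, a subunit of the mitochondrial pyruvate carrier, with a log2 difference of -1.53 (SE 0.17, limma adjusted p = 0.000143), and Pdp1, a phosphatase that reactivates pyruvate dehydrogenase, with -1.06 (SE 0.28, adjusted p = 0.0189). Of 11 genes of the tricarboxylic acid cycle only Suclg2 was called, higher by 1.09 (SE 0.23, adjusted p = 0.00561). Of 7 pentose phosphate genes only H6pd was called, higher by 2.95 (SE 0.47, adjusted p = 0.00113), at 8.05 ± 0.19 in Cdx2 and FGF cultures and 5.10 ± 0.90 in motor neuron cultures. Of 7 genes of serine and glycine metabolism limma called 0 and gave 0 adjusted p-values under 0.05, and of 7 transcriptional regulators of glycolysis only Myc was called, higher by 2.33 (SE 0.65, adjusted p = 0.0219). Myc averaged 10.38 ± 0.17 in Cdx2 and FGF cultures, 8.04 ± 0.10 in motor neuron cultures and 7.79 ± 1.65 in ES cells.

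In motor neuron cultures against ES cells 25.9% of all genes tested were called higher and 30.7% lower, and each of these lists had 2 to 5 calls. Pdk4, a further pyruvate dehydrogenase kinase, was under 4 on all 6 day 5 arrays and averaged 11.92 in ES cells, at least 242-fold lower in motor neuron cultures. Pdk2 and Pdp1 were called higher, and Pdha1, the catalytic subunit of pyruvate dehydrogenase, lower by a log2 difference of -1.40 (SE 0.09, adjusted p = 8.01e-07). Of the tricarboxylic acid cycle genes Suclg2 and Ogdh were called lower. H6pd was lower by -4.20 and Pgls, another pentose phosphate enzyme, higher by 3.04. Shmt1, Gldc and Mthfd2, which feed 1-carbon units, were called lower by -1.89 to -1.31, and Mycn and Foxk2 lower by -1.45 and -1.11.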
